A study of Drosophila melanogaster with 2 samples.

Results

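Small nucleolar RNA (snoRNA) genes were examined as possible binding positions of dsf-eGFP, a fusion of the orphan nuclear receptor dissatisfaction with a green fluorescent tag at its C-terminal end. The members were all genes that the Ensembl annotation of the BDGP6 (dm6) genome gives the biotype snoRNA on the chromosome arms (2L, 2R, 3L, 3R, 4 and X), which came to 269 of 18164 annotated genes. The group included small Cajal body RNAs (scaRNAs). A snoRNA was called bound when a summit of the joint list lay within 1000 bp of its start, its 5′ end. The joint list is the set of regions that passed the irreproducible discovery rate procedure in the deposited data, 1708 of them on these arms. The chromatin came from 1 group of 2 biological replicates, numbered 3 and 4, of whole wandering larvae of the third instar, males and females pooled, from a transgenic dsf-GFP line that makes the fusion stably, precipitated with an antibody against the tag. Both replicates came from the same fly line, and each was a pool of animals of unknown age. No control sample was analysed here, so "bound" is a label of position only. In whole larvae, strong binding in a few cells and weak binding in many cannot be told apart. Every region's signal value is the authors' own, and sequencing depth is unknown.

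snoRNAs guide chemical modification of other RNAs by base pairing. C/D snoRNAs, named for their C and D sequence boxes, direct methylation of the ribose, and H/ACA snoRNAs direct the change of uridine to pseudouridine. Most act on ribosomal RNA in the nucleolus, while scaRNAs modify the RNAs of the spliceosome. In Drosophila most lie in introns of a host gene and are cut out of the spliced and debranched intron, so the host's promoter also drives the snoRNA. Some hosts, the U snoRNA host genes (Uhg), have spliced exons that encode no protein. Ribosomal protein genes, a further large class of hosts, often start transcription within a pyrimidine-rich initiator, the TCT element. Promoters of many growth genes carry the DNA replication-related element, whose core is TATCGA.

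Sequences of a bound C/D snoRNA, a bound H/ACA snoRNA and the host start beside the latter are shown first, because they put the summit, the host start and the snoRNA on 1 stretch. All are from the RefSeq release 6 genome, read 5′ to 3′ on the strand of the gene. In the C/D snoRNA Me28S-A774b (3L 13023580 to 13023652, plus strand), intronic in RpS12, capitals mark the C box core and the D box.
snoRNA:Me28S-A774b: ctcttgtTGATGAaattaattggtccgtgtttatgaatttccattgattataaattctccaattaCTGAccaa
In the H/ACA snoRNA Or-aca2 (X 7901062 to 7901203, minus strand), intronic in RpS6, capitals mark the ACA box, 3 bases from the end.
snoRNA:Or-aca2: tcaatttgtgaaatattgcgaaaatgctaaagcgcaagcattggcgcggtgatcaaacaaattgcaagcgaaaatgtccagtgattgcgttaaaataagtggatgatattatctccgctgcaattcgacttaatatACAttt
In the start of RpS6 (X 7901181 to 7901351, minus strand), the annotated start is base 21, the summit is base 62 and Or-aca2 begins at base 149. Capitals mark a TCT element.
RpS6 start: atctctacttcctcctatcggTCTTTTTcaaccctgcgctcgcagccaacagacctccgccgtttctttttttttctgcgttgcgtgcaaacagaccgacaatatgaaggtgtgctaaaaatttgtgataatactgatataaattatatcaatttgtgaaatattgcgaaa

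Windows reaching 50 bases to either side of 5 summits at hosts are shown because each holds TATCGA on either strand, in capitals here, with overlapping copies joined. The summit is base 51 of each window, and the sequence is on the host's strand. The windows are at RpL28 (3L 3223004 to 3223104), RpS12 (3L 13023257 to 13023357), RpS29 (3R 9777988 to 9778088), RpS7 (3R 30208941 to 30209041) and RpL10Ab (3L 11822765 to 11822865). The last line, at drn (3R 9353370 to 9353470), is the only summit that lay nearer to a snoRNA than to any annotated start, and it holds no copy.
RpL28: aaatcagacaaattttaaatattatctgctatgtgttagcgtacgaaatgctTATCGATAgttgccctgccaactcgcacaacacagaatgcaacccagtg
RpS12: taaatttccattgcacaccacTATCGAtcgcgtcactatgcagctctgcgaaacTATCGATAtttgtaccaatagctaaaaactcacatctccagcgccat
RpS29: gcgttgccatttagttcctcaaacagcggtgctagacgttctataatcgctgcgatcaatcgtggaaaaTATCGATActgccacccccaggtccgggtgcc
RpS7: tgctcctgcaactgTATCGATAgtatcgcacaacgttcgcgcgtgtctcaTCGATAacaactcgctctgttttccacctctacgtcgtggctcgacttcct
RpL10Ab: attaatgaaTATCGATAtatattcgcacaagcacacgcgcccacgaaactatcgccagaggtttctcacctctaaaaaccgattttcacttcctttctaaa
drn: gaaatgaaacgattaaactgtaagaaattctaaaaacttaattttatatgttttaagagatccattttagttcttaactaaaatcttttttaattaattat

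Of the 269 snoRNA genes, 31 were bound, or 11.5% (exact 95% interval 7.97 to 16.0). Measured the same way at any transcription start site (TSS), 12.2% of protein-coding genes, 4.63% of ncRNA genes, 4.14% of tRNA genes and 10.4% of all genes were bound. The snoRNA share was thus near that of all genes. The interval covers counting error only and treats members as independent, which they were not. The 31 bound snoRNAs lay in only 20 host genes and shared 22 summits. All 31 lay in a host, 30 of them in an intron, and none of the 22 snoRNAs without a host was bound, and a count of 0 there leaves room for up to 13.6%.

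Every summit near a bound snoRNA lay upstream of it. All 34 pairs of a snoRNA and a summit within 1000 bp had the summit 5′ of the snoRNA's start, by a median of 730 bp for the nearest summits (87 to 976 bp). No summit of the joint list fell inside any snoRNA, and neither did any among the strongest regions of replicate 3 or of replicate 4. snoRNAs are short, with a median length of 85 bp for bound and 135 bp for unbound members. The number of summits to be expected inside them by length was not computed, so these zeros do not show avoidance of snoRNA bodies. Within 2 kb, 80 pairs were upstream and 2 downstream. The pooled list of 29975 regions on these arms, background included, had no such side, with 170 pairs upstream within 1000 bp and 156 downstream, and 17 of its summits inside snoRNAs. Pairs are not independent, since a summit can pair with several snoRNAs of the same host. The 34 pairs rest on 22 distinct summits, and distinct summits were not counted for the other sets of pairs.

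Most of these summits sat at or near host starts. By the nearest feature, the summit belonged to the host promoter for 25 of the 31 snoRNAs, to the promoter of another gene for 5, and to the snoRNA itself for 1. Counted by distinct summit, these classes held 16, 5 and 1 of the 22. The host promoter class has no distance limit and includes pAbp, at 553 bp from the start. Of the 22 distinct summits, 17 lay within 250 bp of a host TSS, 12 within 100 bp and 9 within 50 bp. The median distance was 81.5 bp, and 17 of 22 were on the upstream side. The like shares over all nuclear summits were not computed, so these positions are not shown to be particular to snoRNA hosts. The map of summits and host starts shows the summit close to the host start in most rows, with drn and pAbp the farthest apart.

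**Figure D1:**
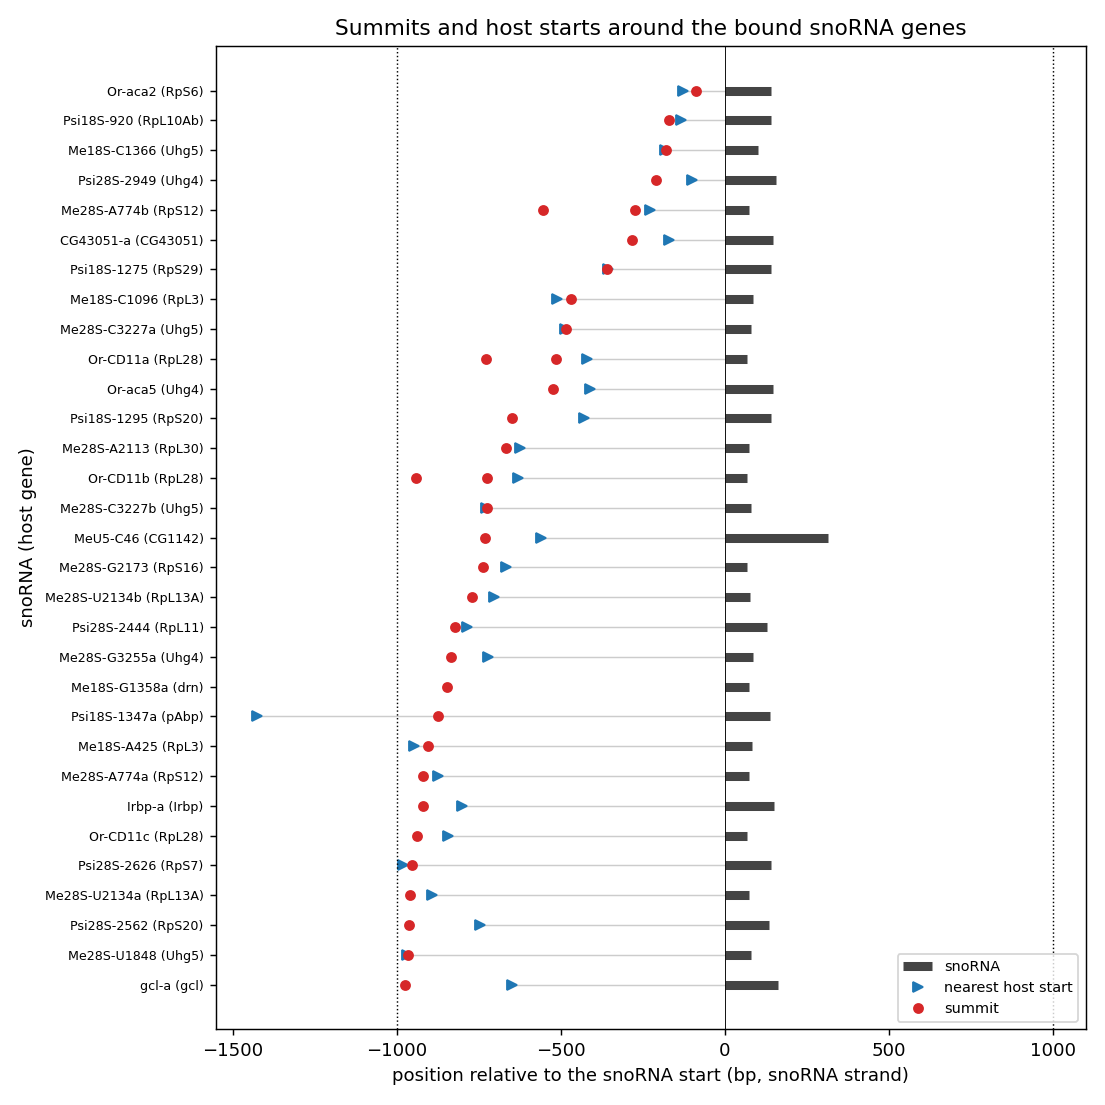
Positions of summits (red circles) and of the host start nearest to the snoRNA's closest summit (blue triangles) relative to the start of each of the 31 bound snoRNAs (dark bars, drawn to length), in bp on the snoRNA's strand. Dotted lines mark 1000 bp on either side, and the nearest drn start is off the scale. All summits are left of 0, and most are beside the host start.

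In 5 cases the start of another gene was nearer to the summit than that of the host. At RpS20, host of Psi18S-1295 and Psi28S-2562, the summit lay 219 bp upstream of the host and 114 bp from the start of CG17271, on the opposite strand. At Irbp, which encodes a Ku subunit of DNA end joining and hosts Irbp-a, it lay 120 bp upstream of the host and 52 bp from mgr. At gcl, the germ cell-less gene, it lay 329 bp upstream of the host and 90 bp from CG14767. At RpS6 it lay 41 bp inside the host, and 12 bp from the annotated start of an overlapping pseudogene, CR33222, on the same strand. In all, 10 of the 22 summits had the start of an opposite-strand gene within 500 bp. That start was nearer to the summit than the host's at RpS20, Irbp, gcl and the upstream summit of RpL28, and the host's was nearer at the others, as at Uhg5 (3 bp against 284 bp) and RpL3 (41 bp against 296 bp).

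A single snoRNA had a summit without any annotated start near it. Me18S-G1358a (3R 9354268 to 9354342), a C/D snoRNA in intron 2 of drn, had a summit 848 bp upstream, in a region with signal value 99.0 and rank 934 among nuclear regions. The nearest drn start lay 2075 bp from the summit. The region was matched in replicate 4 (rank 769 of its own list, signal value 68.8) and not in replicate 3. The window shown above for it is rich in A and T. A further case apart was pAbp, the gene of the poly(A) binding protein, where the summit lay 553 bp downstream of the nearest start and 874 bp upstream of Psi18S-1347a.

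snoRNAs close to the host start were called bound more often than distant ones, a split that the 1000 bp window itself favours. With a host start within 1000 bp upstream, 29 of 84 snoRNAs were bound (34.5%), and with the start farther away 2 of 163 were (1.23%). These 2 are the snoRNAs in drn and pAbp. A summit lay within 1000 bp of any host TSS for 48.8% of the nearer and 52.1% of the farther snoRNAs. Among the farther ones this share was 57.5% from 1000 to 2000 bp, 58.1% up to 5000 bp and 25% beyond (7 of 28). These shares count snoRNAs, so a host's call is repeated for each of its snoRNAs. Hosts were not counted by distance, so equal binding of nearer and farther hosts is not shown. Among snoRNAs of bound hosts, 29 of 41 were bound when the start was within 1000 bp and 2 of 85 when it was not. Among snoRNAs of unbound hosts, 0 of 121 were bound, a count compatible with up to 2.48%. The zero is partly built in for the 43 of them within 1000 bp of the host start, whose window overlaps the host's, and it held equally for the 78 farther away.

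**Figure D2:**
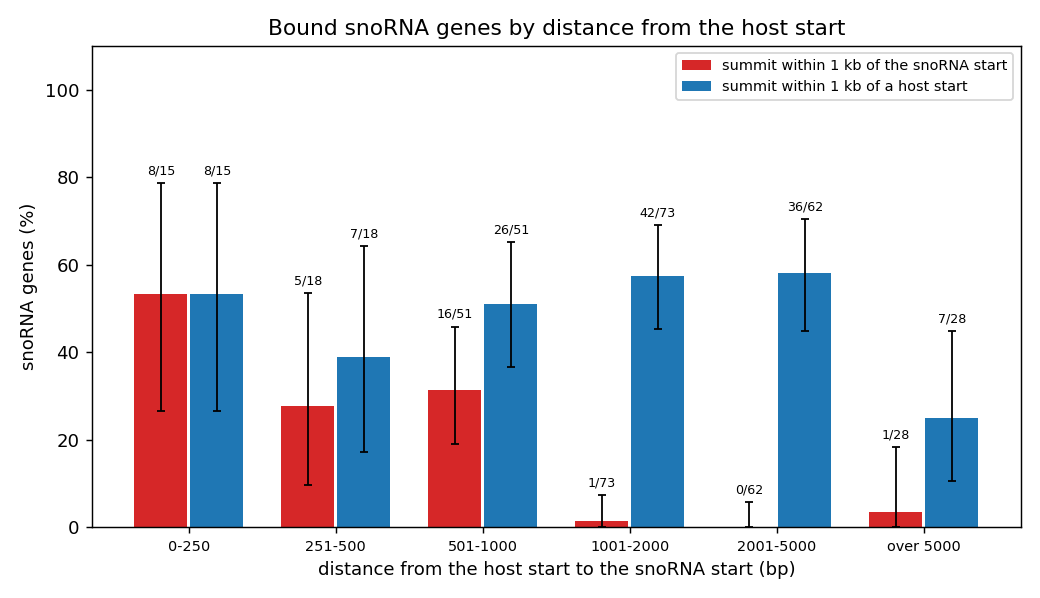
Share of snoRNA genes (%) with a summit within 1 kb of their own start (red) or of a start of their host (blue), by the distance in bp from the nearest upstream host start of a transcript that holds them. Bars give the share, error bars the exact 95% interval and labels the counts. In the bin from 1000 to 2000 bp the red share is 1 of 73 and the blue share 42 of 73, and over 5000 bp they are 1 of 28 and 7 of 28. All snoRNAs of a host share its call, so the blue intervals are too narrow.

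Counted by host start instead, far more snoRNAs were involved. Of 247 snoRNAs with a host, 126 lay in a bound host (51%, exact 95% interval 44.6 to 57.4). All snoRNAs of a host share its call, so this interval is too narrow. Of the 126, 95 lay too far from the summit to be called bound themselves. By gene, 39 of 92 hosts were bound, or 42.4% (exact 95% interval 32.1 to 53.1), beside 12.0% of the 13863 protein-coding genes that host no snoRNA. In bound hosts the strongest summit lay upstream of the TSS in 31 of 39, with a median position of -103 bp, and within 250 bp in 29. The like positions over all bound genes were not computed. Bound hosts, unbound hosts and protein-coding genes at large each had a median of 1 TSS, with at most 7, 5 and 16. Since 1 is the lowest possible count, equal medians do not show equal numbers of starts. A relation of the shares to the number of starts was not tested. No test of these shares was made, since the members were chosen with earlier results of these data known.

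Ribosomal protein genes were the hosts of most bound snoRNAs. They hosted 69 snoRNAs, of which 18 were bound (26.1%), in 12 genes. The hosts named RpL or RpS were bound in 14 of 27 cases (51.9%, exact 95% interval 31.9 to 71.3), and genes with such names that host no snoRNA in 28 of 61 (45.9%, 33.1 to 59.2), so that the intervals overlap widely. Other protein-coding hosts were bound in 23 of 55 cases (41.8%, 28.7 to 55.9). Yet only 6 of their 123 snoRNAs were bound (4.88%). Their snoRNAs lay farther from the host start, at a median of 2252 bp against 893 bp in ribosomal protein hosts. Of the 7 Uhg genes, 2 were bound, Uhg4 and Uhg5, with 7 bound snoRNAs among 48. ncRNA genes that host no snoRNA were bound in 4.58% of cases.

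**Figure D3:**
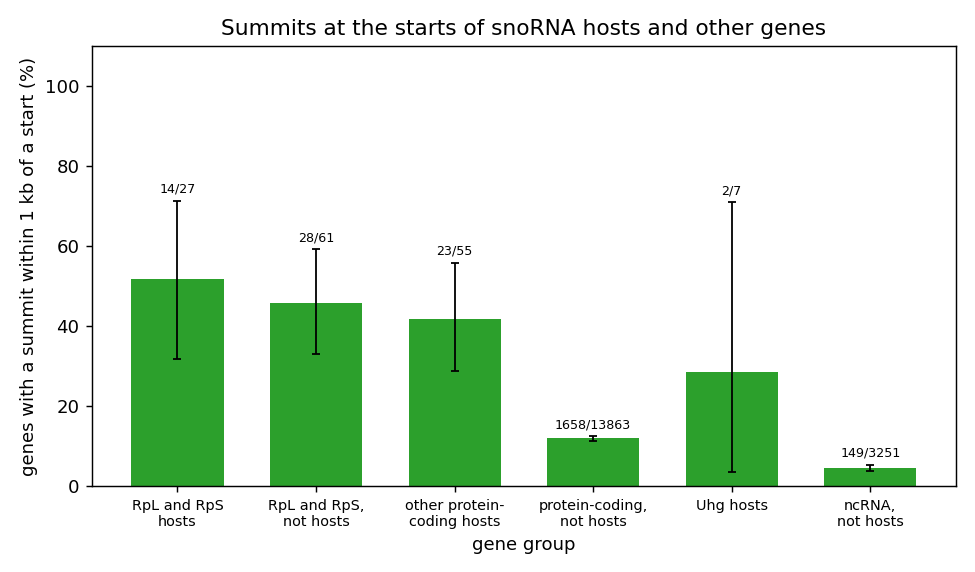
Share of genes (%) with a summit within 1 kb of a start, for hosts and for genes that host no snoRNA, by kind. Bars give the share, error bars the exact 95% interval and labels the counts. Hosts named RpL or RpS (14 of 27) and other protein-coding hosts (23 of 55) lie above protein-coding genes that host none (1658 of 13863), and the 7 Uhg hosts have a wide interval.

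By guide class, 18 of 117 C/D snoRNAs (15.4%, exact 95% interval 9.38 to 23.2) and 10 of 120 H/ACA snoRNAs (8.33%, 4.07 to 14.8) were bound, and 3 of 32 whose name gives no class. Counted by host the order turned, with 38.3% of C/D and 66.7% of H/ACA snoRNAs in a bound host. C/D snoRNAs lay a median 1201 bp from the host start and H/ACA snoRNAs 1625 bp. A few large hosts weigh on these shares, since 192 snoRNAs lay in 37 hosts with more than 1. By the target in the name, 14 of 113 snoRNAs for 28S ribosomal RNA, 8 of 67 for 18S and 1 of 18 for spliceosomal RNAs were bound. By intron of the host, 11 of 57 snoRNAs in intron 1 were bound, 11 of 59 in intron 2, 6 of 37 in intron 3 and 2 of 27 in intron 4. The snoRNA CG43051-a overlapped an exon of its host.

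The strongest region near a member was at CG1142, host of the scaRNA MeU5-C46 (3R 7472907 to 7473222), named for a methylated base of the spliceosomal U5 RNA. Its signal value was 188.8 in the joint list, 92.0 in replicate 3 (rank 156) and 95.9 in replicate 4 (rank 343). The summit lay 171 bp upstream of CG1142. It ranked 199 among the 1708 nuclear regions, the highest rank of any summit near a member.

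RpL28 encodes a protein of the large ribosomal subunit and hosts 5 snoRNAs, of which Or-CD11a, Or-CD11b and Or-CD11c were bound. A summit 94 bp upstream of a host start had a signal value of 171.1, and another, 310 bp upstream, 171.8. In replicate 4 they ranked 496 and 469, with signal values of 82.6 and 84.2, and neither was matched in replicate 3. The second lay 71 bp from the start of eIF1, a translation initiation factor gene on the opposite strand.

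RpL13A, a large subunit gene whose introns hold Me28S-U2134a and Me28S-U2134b, had a signal value of 147.9, with 35.9 in replicate 3 (rank 1221) and 90.9 in replicate 4 (rank 387), 66 bp upstream. RpS20, of the small subunit, had 126.9, with 47.2 in replicate 3 (rank 731) and 71.9 in replicate 4 (rank 696). RpS29, also of the small subunit, had 101.6, with 39.9 (rank 992) and 47.5 (rank 1703), 4 bp upstream. All 3 were among the strongest 1731 regions of both replicates.

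RpS16 (128.5 in the joint list, 69 bp upstream), RpL11 (109.8, 38 bp upstream) and RpL3 (99.4, 41 bp downstream) were matched in 1 replicate only. They ranked 386, 620 and 798 in replicate 4 and had no match in replicate 3. Their bound snoRNAs were Me28S-G2173, Psi28S-2444, and the pair Me18S-C1096 and Me18S-A425. RpL30, host of Me28S-A2113, behaved alike, with 84.1 in the joint list and rank 630 in replicate 4.

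Uhg4, a non-coding host of 7 snoRNAs, showed the reverse. Its summit, 112 bp upstream, had a signal value of 118.7, ranked 496 in replicate 3 with 56.7, and was not matched within 100 bp in replicate 4. Within 250 bp replicate 4 matched all 31 bound snoRNAs, those of Uhg4 included. The Uhg4 summit made Psi28S-2949, Or-aca5 and Me28S-G3255a bound. Uhg5, with 11 snoRNAs, had its summit 3 bp downstream of the start, with 86.1 in the joint list, 32.1 in replicate 3 (rank 1504) and 47.2 in replicate 4 (rank 1728). It made Me18S-C1366, Me28S-C3227a, Me28S-C3227b and Me28S-U1848 bound, and the region's rank in replicate 4 was just inside the strongest 1731.

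At CG43051 (host of CG43051-a) the replicates differed most among the regions found in both. The summit, 113 bp upstream, had 116.3 in the joint list, rank 7010 with 16.8 in replicate 3, and rank 329 with 97.1 in replicate 4. RpL10Ab, host of Psi18S-920, was similar, with 82.0 in the joint list and ranks of 6500 and 1544. The remaining hosts were RpS6 (98.7), RpS12 with 2 summits (94.6 and 82.4, bound snoRNAs Me28S-A774b and Me28S-A774a), pAbp (92.0), RpS7 (91.4, bound snoRNA Psi28S-2626), Irbp (86.9) and gcl (82.1). At RpS12 the weaker summit, 45 bp upstream, lay within 1000 bp of both snoRNAs. The stronger, 327 bp upstream and 337 bp from the opposite-strand start of Adk2, lay within 1000 bp of Me28S-A774b only.

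Over the 22 distinct summits, the joint signal value ran from 82.0 to 188.8 with a median of 99.2, beside a median of 104 for all 1708 nuclear regions. Replicate 3 matched 15 of the 22 within 100 bp and replicate 4 matched 21, with 14 matched in both. Both replicates placed 9 of the 22 among their strongest 1731. The median rank of those matched was 1227 in replicate 3 and 798 in replicate 4. Both replicates went into the joint list, which favours such matches. Taken from replicate 4 alone, the strongest 1731 regions gave 34 bound snoRNAs, 29 of them among the 31. Taken from replicate 3 alone they gave 24, of which 20 were among the 31.

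**Figure D4:**
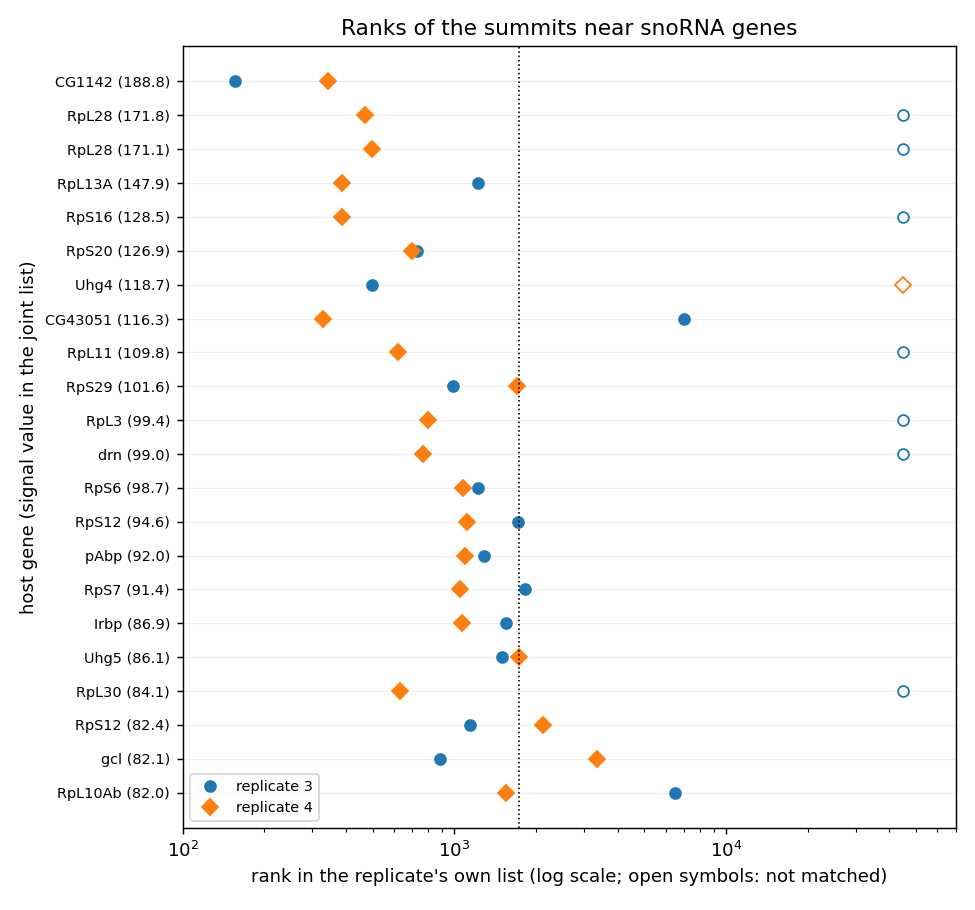
Rank of each of the 22 distinct summits near a bound snoRNA in the own list of replicate 3 (blue circles) and replicate 4 (orange diamonds), on a log scale, ordered by signal value in the joint list (in brackets). Open symbols at the right mark summits with no match within 100 bp, and the dotted line marks rank 1731. Within 100 bp, replicate 3 lacks 7 of the summits and replicate 4 lacks 1.

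Among the hosts with the most snoRNAs, several were bound at a start far from their snoRNAs. Arpc2, a subunit gene of the actin-nucleating Arp2/3 complex, hosts 17 snoRNAs and was bound 53 bp downstream of a start (signal value 92.9), with its nearest snoRNA 1258 bp from the host start. RpS5a hosts 14 and was bound 81 bp upstream (85.7), kra hosts 8 and was bound 226 bp upstream (116.0), and Hrb98DE, an hnRNP gene, hosts 7 and was bound 5 bp downstream (77.9). None of these 4 had a bound snoRNA. In RpS5a the nearest snoRNA lay 447 bp from an annotated start but 1586 bp from the nearest summit, since the region was at another start. RpS7, with 7, was bound 29 bp downstream (91.4) and had 1.

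Other hosts with many snoRNAs were not bound. Uhg1, with 16 snoRNAs, had its strongest pooled region near the start at rank 3652. The chromatin remodeller gene dom, with 15, and Nop60B, with 7, had no pooled region within 1000 bp of a start. Nop60B encodes the pseudouridine synthase of H/ACA particles (the fly dyskerin).

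In all, 19 hosts were bound without a bound snoRNA, holding 67 snoRNAs. The strongest was Stt3A, an oligosaccharyltransferase gene, with 269.6 at 393 bp upstream and ranks of 200 and 75 in replicates 3 and 4. CG12316 had 188.6 (ranks 234 and 264), the transcription factor gene lola 161.3 (214 and 489), and Msp300, a nesprin gene, 157.5 (232 and 514). RpL4 had 130.9, with rank 424 in replicate 4 and no match in replicate 3. The snoRNA lay 50634 bp from the nearest upstream start in Msp300 and 76936 bp in Dys, the dystrophin gene.

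Among the 238 snoRNAs called unbound, the nearest summit lay a median 7166 bp away, and 43 had one beyond 1000 bp but within 2000 bp. The last members inside the 1000 bp limit were Psi28S-2562 (964 bp), Me28S-U1848 (966 bp) and gcl-a (976 bp). The first outside were Psi28S-1175a of RpS16 (1027 bp), Psi18S-1347b of pAbp (1072 bp) and Me28S-A982a of Uhg4 (1076 bp), all in hosts that were bound. A pooled region within 1000 bp was listed for 151 of the unbound, at a median nuclear rank of 8454, and none for 87. Of the 53 unbound hosts, 22 had no pooled region within 1000 bp of a start. The strongest pooled regions at RpL17, skd and Uhg2 had nuclear ranks of 1731, 1754 and 1782, just beyond the 1708 of the joint list.

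U3 and U14, which act in the cleavage of the ribosomal RNA precursor, were not bound. The 3 U3 genes, U3:9B, U3:54Aa and U3:54Ab, have no host in the annotation and had the nearest summit at 82236, 41091 and 42978 bp. Both U14 genes, U14:30Ea and U14:30Eb, lie in Uhg2, 3273 and 3532 bp from the nearest summit.

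Genes for the proteins of the same pathway were covered by a list of 24, all of which were in the annotation. Of these, 4 were bound (16.7%), a share near the 12.2% of protein-coding genes. They were pont and rept, the AAA+ ATPases that help assemble snoRNA particles, Polr1D, a subunit of RNA polymerase I, and Surf6, a nucleolar protein gene. The signal values were 131.4 (148 bp upstream), 99.0 (59 bp upstream), 123.0 (164 bp upstream) and 76.8 (173 bp upstream). In replicates 3 and 4, pont ranked 579 and 556, rept 920 and 1303, Polr1D 530 and 880, and Surf6 1556 and 1904. None of the core proteins of either particle was bound: Fib, the methyltransferase of C/D particles, with Nop56, nop5 and hoip, and Nop60B with NHP2, Nop10 and Gar1 of H/ACA particles. These genes are too few for that to set them apart from protein-coding genes at large. The other unbound genes were Nopp140, coil, ldbr, Rrp6, Nnp-1, vito, mod, Nlp, Tif-IA, Polr1A, Polr1B and Polr1E. Fib and nop5, each a host of 1 snoRNA, and Nop60B were thus unbound hosts as well.

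Sequence words were counted within 50 bp of the 22 summits on both strands. TATCGA was found at 5 (22.7%), those shown above and all at ribosomal protein hosts, beside 10.1% of all 1708 nuclear summits. TATAAA was at 5 (22.7%) beside 23.0%, and AAGTCA, the core site of tailless-group receptors, at 0 of 22 beside 5.27%. With only 22 summits, 5 with TATCGA are not set apart from 10.1%, nor is a count of 0 from 5.27%. A TCT element, searched as CCTTTCT and the variants CCTTTTT and TCTTTCT and also TCTTTTT, wholly within 10 bases of an annotated start on the gene's strand, was found in 3 of the 20 hosts of bound snoRNAs, RpL30, RpS6 and pAbp. It was in 5 of 39 bound hosts (12.8%), 5 of 53 unbound hosts (9.43%), 27 of 88 genes named RpL or RpS (30.7%) and 0.896% of all protein-coding genes. RpL30 has 2 annotated starts, and the element is not at the one nearest to the summit. The other start (2L 19009207 to 19009257, minus strand, annotated start at base 21) is a further example, with the element in capitals.
RpL30 start: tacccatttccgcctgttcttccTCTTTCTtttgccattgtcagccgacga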

How the data were processed

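Chromatin immunoprecipitation sequencing gave, for 2 replicates, peak lists on dm6 deposited by the authors: a list of peaks and background per replicate, a pooled list and the joint IDR-thresholded list. The deposited signal value ranks regions. The deposited −log10 q-value column was not used. Aligner, peak caller, versions and scaling were not given in the sources used here. These lists hold no read counts, so intervals (exact Clopper-Pearson, 95%) cover counting error only, and a count of 0 is given the limit of 3 counts.

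Genes came from Ensembl release 115, transposable elements left out. Region ends lay within the release 6 arm lengths. A summit is the region start plus the deposited offset, counted from 1. The host is the same-strand non-snoRNA gene whose span holds the snoRNA, one with it in an intron first, then the shortest. A summit within 100 bp is a replicate match. Alternatives changed the window, the list, the host rule and the replicates used. Host groups RpL and RpS were taken by symbol, which leaves out sta.

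The members, the lists and the rule for naming genes were chosen with earlier results of these data known. The rule named every bound snoRNA with its host, the 10 hosts with the highest signal values in full, the 3 members on each side of 1000 bp, the 10 hosts with the most snoRNAs, U3, U14 and the pathway list. Other hosts (Dys, RpL17, skd, Uhg2) were named after their values were seen. Calls were checked on simulated summits. The lists on dm3 were not used. Python 3.11.15 and scipy 1.17.1 were used.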

Additional observations from a re-analysis of the deposited data

How the results depend on the processing

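The number of bound snoRNAs follows the window and the list. It was 31 of 269 as reported, 9 within 500 bp, 74 within 2 kb, 6 with the strongest 25% of regions and 71 with the strongest 5000 pooled regions. It was 31 with distance measured to the snoRNA body. Counted once per host or group, it was 20 of 109. Without replicate 3 it was 34 and without replicate 4 it was 24. The number of bound hosts was 39 of 92, and 37 to 42 with windows of 500 bp and 2 kb, hosts on either strand, or, chosen after seeing the data, starts of snoRNA-holding transcripts only. It was 7 with the strongest 25% of regions and 59 with the strongest 5000 pooled regions, and 30 to 39 with 1 replicate left out. The share of bound snoRNAs with the summit at the host promoter was 80.6%, and 70.8% to 90.3% with 1 replicate left out, with the 250 bp rule and, chosen after seeing the data, with pseudogene starts left out. With the strongest 5000 pooled regions it fell to 60.6% of 71, with 18 summits nearest to a snoRNA, and with the strongest 25% of regions it was 6 of 6. Matches in replicate 3 covered 22 of the 31 bound snoRNAs and 22 to 23 at 50 and 250 bp, and in replicate 4 they covered 28 and 28 to 31. No paired analysis was possible because the series has 1 group. Depth is unknown, so a summit missing from a list is not shown to be absent.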
